A study of Mus musculus with 2 samples.

Results

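Hyaluronan is a long unsulphated sugar chain of the extracellular matrix, and the 9 genes described here make it, supply it with sugar nucleotides, cut it or bind it: Has1, Has2, Has3, Ugdh, Hyal1, Hyal2, Tnfaip6, Vcan and Hapln1. They were chosen by gene symbol for their known roles, with earlier results of these data known, and are 9 of the 34097 genes listed in the data. Each symbol matched 1 gene identifier. Single-cell RNA of 2 tumours was measured by the 10x Genomics droplet method, in which each captured transcript carries a unique molecular identifier (UMI). The tumours are labelled as lung cancer xenografts of LLC, the mouse Lewis lung carcinoma line. The control library (11977 cells, 165824226 UMIs) came from a control tumour. The knockdown library (12853 cells, 138402860 UMIs) came from a tumour treated with a short hairpin RNA against Gfpt2, an enzyme of the hexosamine pathway. The host strain, its age and sex, the site of growth, the hairpin of the control and whether the LLC cells were 1 clone or several are not given in the sources used here. Each group has 1 library, so there is no replicate spread and no test was run. Intervals of levels and shares are exact 95% intervals, and a range beside a log2 ratio sets the ends of both intervals against each other. Both cover counting error only.

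Cells were gated on their raw UMIs. Tumour-like cells had no UMI of Ptprc (the leukocyte antigen CD45), under 5 UMIs of Lyz2 (lysozyme) per 10000 and at least 5000 UMIs in all. The macrophage gate took cells with at least 10 UMIs of C1qa, C1qb and C1qc per 10000, and the T cell gate took cells with at least 2 UMIs of Cd3d, Cd3e and Cd3g. This gave 5184 control and 5370 knockdown tumour-like cells, 4859 and 5615 macrophage-gated cells, and 997 and 838 T cell-gated cells. A cell could pass more than 1 gate. Levels are given as CPM, the summed UMIs of a gene per 1000000 summed UMIs of the same cells.

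Hyaluronan synthases sit in the plasma membrane and extrude the chain as they build it from UDP-glucuronic acid, which Ugdh makes, and UDP-N-acetylglucosamine, the end product of the hexosamine pathway in which Gfpt2 acts. Outside the cell the chain is held in aggregates by versican (Vcan) and the link protein Hapln1, is modified by TSG-6 (Tnfaip6) and is broken down by hyaluronidases. In tumours hyaluronan is known as a major component of the matrix made by cancer cells and fibroblasts.

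Of the members, 4 lie in 2 neighbouring pairs, and the levels below differ within each pair. Hapln1 and Vcan are adjacent coding genes on opposite strands of chromosome 13, and Hyal2 and Hyal1 are adjacent on the same strand of chromosome 9, in the order of the GRCm38.p6 RefSeq genes. Promoters (250 bases before to 50 bases after the gene start) were in the RefSeq table of GRCm38.p6 for 7 of the 9 members, but not for Has2 or Has3. Of the 7, 5 are printed 5′ to 3′ on the gene's own strand. The build used for the deposited counts is not given in the sources used here. Hapln1 is at chr13:89540386-89540685 on the plus strand, Vcan at chr13:89742463-89742762 on the minus strand, Hyal1 at chr9:107576700-107576999 and Hyal2 at chr9:107568913-107569212, both on the plus strand, and Tnfaip6 at chr2:52037863-52038162 on the plus strand. Capitals mark matches, on either strand, to the motifs searched: TATAAA, the GC box GGGCGG, the AP-1 site TGANTCA, the NF-kB site and the PU.1 core GAGGAA. Overlapping matches are merged into 1 run of capitals.
Hapln1: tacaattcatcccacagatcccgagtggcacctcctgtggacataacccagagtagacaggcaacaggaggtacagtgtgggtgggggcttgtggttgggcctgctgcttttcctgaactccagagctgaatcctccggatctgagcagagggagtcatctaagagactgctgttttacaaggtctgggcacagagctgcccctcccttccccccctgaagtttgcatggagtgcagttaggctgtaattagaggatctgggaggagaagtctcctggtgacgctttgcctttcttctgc
Vcan: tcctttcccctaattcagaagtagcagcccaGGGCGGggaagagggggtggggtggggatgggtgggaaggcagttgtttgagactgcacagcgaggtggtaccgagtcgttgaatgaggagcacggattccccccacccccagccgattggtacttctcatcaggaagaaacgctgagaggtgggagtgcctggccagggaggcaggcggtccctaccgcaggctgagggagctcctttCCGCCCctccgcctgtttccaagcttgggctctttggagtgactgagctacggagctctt
Hyal1: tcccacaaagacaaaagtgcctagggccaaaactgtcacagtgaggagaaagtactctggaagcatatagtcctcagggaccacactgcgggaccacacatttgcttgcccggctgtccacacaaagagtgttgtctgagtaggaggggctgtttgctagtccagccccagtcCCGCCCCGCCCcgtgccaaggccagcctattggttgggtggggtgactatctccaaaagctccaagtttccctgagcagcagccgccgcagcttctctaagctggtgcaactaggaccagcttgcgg
Hyal2: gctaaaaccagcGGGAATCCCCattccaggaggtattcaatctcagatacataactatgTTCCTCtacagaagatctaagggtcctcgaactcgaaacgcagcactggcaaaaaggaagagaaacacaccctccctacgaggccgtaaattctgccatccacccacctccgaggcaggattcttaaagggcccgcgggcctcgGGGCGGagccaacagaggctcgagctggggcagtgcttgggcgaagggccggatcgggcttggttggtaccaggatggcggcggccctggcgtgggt
Tnfaip6: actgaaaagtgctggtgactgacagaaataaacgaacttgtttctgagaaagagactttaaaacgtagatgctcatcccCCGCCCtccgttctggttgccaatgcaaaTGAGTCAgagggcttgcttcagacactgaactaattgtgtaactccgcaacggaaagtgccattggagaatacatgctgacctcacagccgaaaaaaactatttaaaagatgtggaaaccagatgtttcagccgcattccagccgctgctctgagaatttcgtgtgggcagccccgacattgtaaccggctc
The Hapln1 window holds none of the 5 motifs and 3 CG dinucleotides, while the Vcan window holds 2 GC boxes and 12 CG dinucleotides, beside a median of 7 CG over the 32851 promoters of that length. Hyal1 has 2 overlapping GC boxes and 8 CG dinucleotides. Hyal2 has a GC box, an NF-kB match, a PU.1 match and 18 CG dinucleotides. Tnfaip6 has 1 GC box and an AP-1 match that starts at position -142 from the gene start. Of all promoters, 35.7% held the GC box, 7.81% the AP-1 site, 8.46% the NF-kB site, 28.3% the PU.1 core and 13.6% TATAAA. These matches describe the letters only.

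Gfpt2, which checks the labels, had 226 control and 60 knockdown UMIs in tumour-like cells, or 2.06 and 0.658 CPM. The keratin gene Krt16 was at 35.3 and 5.48 CPM there. Cells with a Krt16 UMI, 331 control and 132 knockdown cells, held 119 and 5 of those Gfpt2 UMIs. In tumour-like cells with no Krt16 UMI, Gfpt2 was at 1.06 CPM (0.870 to 1.28) in the control and 0.622 CPM (0.469 to 0.810) in the knockdown library. The part of the rarer Krt16 cells in the Gfpt2 difference was not tested. Of 4 leukocyte markers, Ptprc and Lyz2 are low in tumour-like cells by the gate. Of the 2 it does not use, Coro1a had 8.45 and 8.69 CPM in tumour-like and 379 and 294 CPM in macrophage-gated cells, and Laptm5 had 5.69 and 5.45 CPM and 469 and 408 CPM. Of the 5 LLC markers, Hmga2 gave nearly all of the summed 222 and 219 CPM and the epithelial ones were near 0, with Krt18 at 0 in the knockdown library. The 9 fibroblast markers summed to 2548 and 2866 CPM, mostly Col3a1 and Dcn. Xist, the RNA of the inactive X chromosome, was seen in 78.8% and 65.0% of macrophage-gated cells but in 5.15% and 5.12% of the deeper tumour-like cells and in 4.31% and 4.44% of the collagen-rich ones among them, and tumour-like cells with no Xist UMI had 1026 and 1080.3 CPM of Dcn. A UMI of at least 1 of 5 tumour tracer genes (Hmga2, Sdk1, Grm3, F3 and Tnnt2) was present in 96.5% and 96.9% of tumour-like cells. These 5 were chosen because earlier results placed them in tumour-like cells, so a high share there is in part given in advance. The macrophage and T cell gates also held tumour RNA: Hmga2 was at 90.0 and 121 CPM in the macrophage gate and at 133 and 117 CPM in the T cell gate, against 221 and 218 CPM in tumour-like cells. The libraries shared 37 cell barcodes.

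In tumour-like cells 1 member stood far apart between the libraries. Hapln1 was nearly confined to the control library, with 144 UMIs against 3. Has2 was 1.30-fold higher in the knockdown library, and every member with at least 50 UMIs other than Hapln1 lay within 1.5-fold. A gene with at least 50 UMIs over both libraries was counted as past the fold when its CPM differed at least 1.5-fold. Of 14980 such genes in tumour-like cells, 4.5% were that much higher and 1.4% that much lower in the knockdown library. Of the 8 members counted, 0 were higher and 1, Hapln1, was lower. Their median log2 ratio was -0.02 beside 0.05 for all counted genes.

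**Figure D1:**
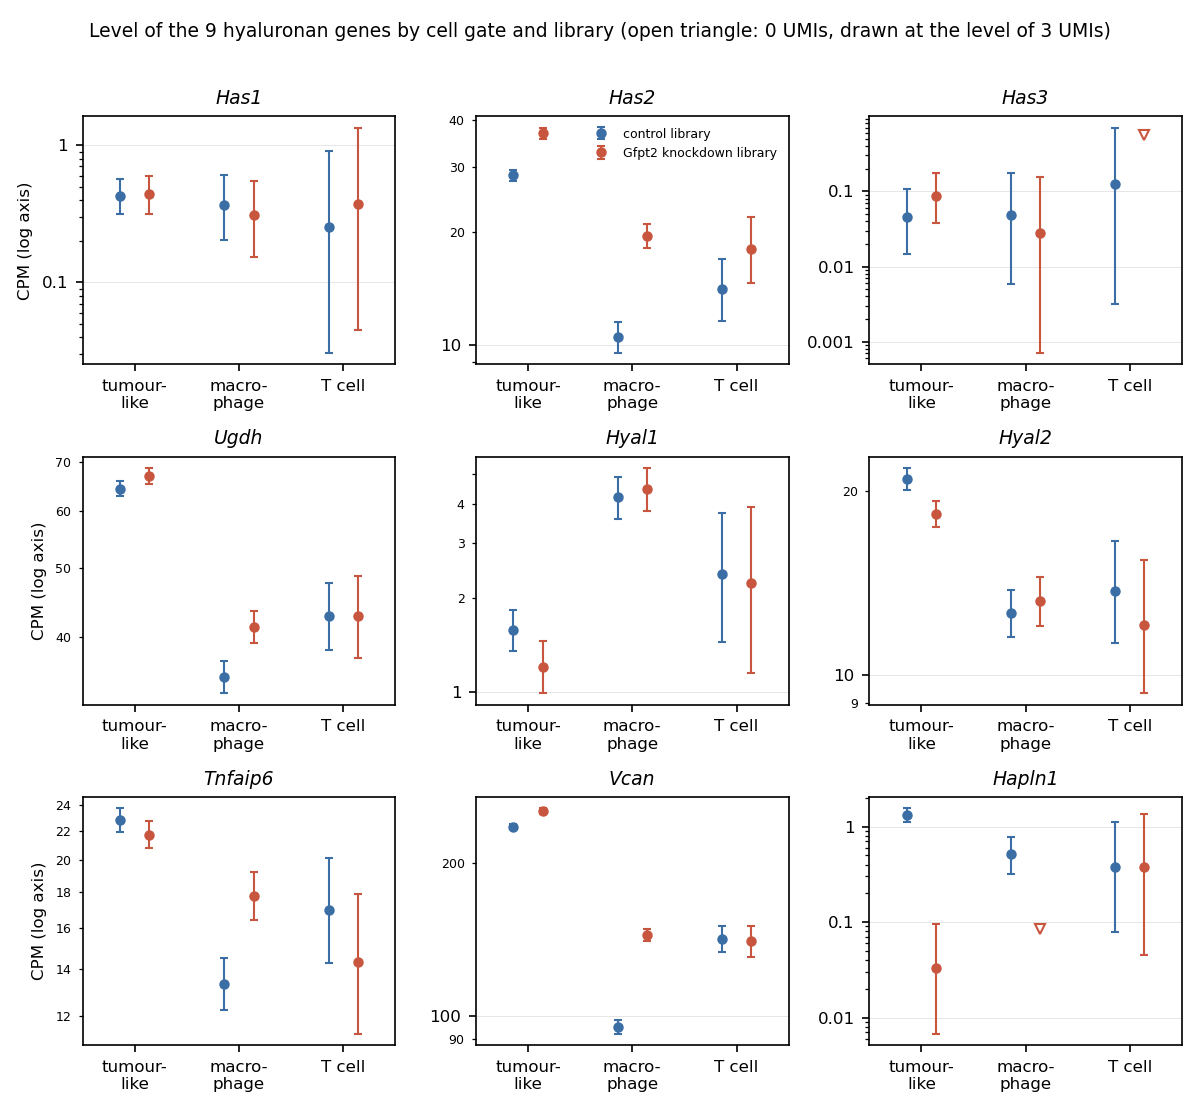
Level of each member in CPM (log axis, scaled per panel) in tumour-like cells and in the macrophage and T cell gates, for the control library (blue) and the knockdown library (red), with exact 95% Poisson intervals. An open triangle stands for 0 UMIs, drawn at the level of 3 UMIs. Hyal1 is the member whose macrophage level lies above its tumour-like level in both libraries, and Hapln1 is the member whose tumour-like levels lie far apart, at 1.32 and 0.0329 CPM.

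Has2, the synthase that makes most hyaluronan in many mesenchymal cells, was at 28.4 CPM (27.4 to 29.4) in tumour-like cells of the control tumour and 36.9 CPM (35.6 to 38.1) in those of the knockdown tumour, from 3110 and 3364 UMIs. The intervals lay apart, with a log2 ratio of 0.38 (0.28 to 0.48), under the 1.5-fold mark. A Has2 UMI was seen in 35.8% (34.5 to 37.1) of control and 38.3% (36.9 to 39.6) of knockdown tumour-like cells, whose median cell had 18982 and 14776 UMIs. In the T cell gate, which should lack the gene, the shares were 6.62% and 7.64% at medians of 3507 and 3168 UMIs. With every cell thinned to 5000 UMIs the tumour-like shares were 13.1% (12.2 to 14.0) and 16.9% (15.95 to 17.98), and those of the T cell gate, without 631 and 566 shallower cells, 4.64% and 6.99%. At matched depth more knockdown than control tumour-like cells thus held a Has2 UMI, beyond counting error.

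The Has2 difference was present inside several kinds of tumour-like cell. Cells with at least 2 UMIs of the proliferation genes Mki67 and Top2a had 25.0 control and 32.7 knockdown CPM, and the other cells had 32.9 and 42.1 CPM. Cells rich in fibrillar collagen (Col1a1, Col1a2 and Col3a1 at 20 or more per 10000, 1556 control and 1869 knockdown cells) had 41.2 and 47.8 CPM, and the cells below that level had 24.5 and 32.6 CPM. Has2 was therefore higher in non-cycling and in collagen-rich cells within each library, and higher in the knockdown library in each of these 4 subsets, by 0.21 to 0.41 on the log2 scale. The order was otherwise in 2 small subsets. Cells with a Krt16 UMI were at 57.96 CPM (331 control cells) and 51.2 CPM (132 knockdown cells), with overlapping intervals, and cells with a Gfpt2 UMI at 70.1 CPM (139 cells) and 37.2 CPM (52 cells), lower in the knockdown library with intervals apart. The latter subset was not alike in the libraries, since 74 of its 139 control cells but 5 of its 52 knockdown cells had a Krt16 UMI. Has2 lies opposite a noncoding gene on the other strand (Has2os), and whether the counting used strand is not given, so reads of the 2 cannot be told apart with certainty. Has2os had 1104 and 1242 UMIs in tumour-like cells, fewer than Has2, and its levels were in the same order, 10.1 CPM (9.50 to 10.7) in the control and 13.6 CPM (12.9 to 14.4) in the knockdown library.

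The other synthases were barely detected. Has1 had 47 control and 40 knockdown UMIs in tumour-like cells, or 0.429 CPM (0.315 to 0.571) and 0.439 CPM (0.313 to 0.597), and the levels overlapped. Has3 had 5 and 8 UMIs there, and over all cells of each library 8 and 12 UMIs. No difference in either gene was detectable at this depth.

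Ugdh, which oxidises UDP-glucose to UDP-glucuronic acid, was at 64.4 CPM (62.9 to 65.9) in tumour-like cells of the control tumour and 67.1 CPM (65.4 to 68.8) in those of the knockdown tumour. These overlapped, with a log2 ratio of 0.06 (-0.01 to 0.13). In cycling cells it was at 68.4 and 73.1 CPM, and in the others at 59.1 and 59.4 CPM, so its level moved more with proliferation than between libraries. Of the 6 other genes that supply the 2 UDP-sugars, 0 were past the fold upwards and 1, Gfpt2, the gene targeted by the knockdown, was lower, beside 4.5% and 1.4% of all 14980 genes counted. Their median log2 ratio was 0.04 beside 0.05 over all these genes. With so few genes, and the knockdown target as the only 1 past the fold, these counts say nothing particular of the list. Ugp2, which makes UDP-glucose, was at 62.6 and 67.3 CPM, and the hexosamine enzymes Gfpt1 at 30.8 and 31.6 CPM, Gnpnat1 at 57.9 and 53.6 CPM and Pgm3 at 20.9 and 21.4 CPM. Uap1, which makes UDP-N-acetylglucosamine, was at 95.6 and 114 CPM, with a log2 ratio of 0.25 (0.20 to 0.31).

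The 2 hyaluronidases, which lie side by side on chromosome 9, were distributed in opposite ways over the gates. Hyal2, a surface-anchored enzyme that cuts long chains, was at 20.9 CPM (20.1 to 21.8) in tumour-like cells of the control tumour and 18.4 CPM (17.5 to 19.3) in those of the knockdown tumour. It was lower in the macrophage gate, at 12.6 and 13.2 CPM, and in the T cell gate, at 13.7 and 12.1 CPM, and these last intervals overlapped. The tumour-like levels lay apart between libraries, with a log2 ratio of -0.19 (-0.32 to -0.06).

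Hyal1, the lysosomal hyaluronidase, had the reverse order. It was at 1.58 CPM (1.35 to 1.83) and 1.21 CPM (0.991 to 1.45) in tumour-like cells, and at 4.19 CPM (3.59 to 4.87) and 4.46 CPM (3.79 to 5.21) in the macrophage gate. The macrophage level was 265% of the tumour-like level in the control library and 369.9% under knockdown, with intervals apart in both. Between libraries the intervals overlapped in both gates, with log2 ratios of -0.39 (-0.89 to 0.10) and 0.09 (-0.36 to 0.54). Hyal1 overlaps Naa80 and Hyal3 on the same strand in GENCODE M21, so its few UMIs, 173 and 110 in tumour-like cells, carry a doubt over which gene they came from. Naa80 had 472 and 422 UMIs in those cells, more than Hyal1, and its levels were in the same order, 4.31 and 4.63 CPM in tumour-like cells and 7.34 and 7.77 CPM in the macrophage gate. Hyal3 had 57 and 59 UMIs in tumour-like cells, or 0.521 and 0.647 CPM. It had 55 and 51 UMIs in the macrophage gate, or 1.34 and 1.43 CPM, so its levels were in that order too.

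Read the other way, 26.6% of 15089 counted genes in the control library were at least 1.5-fold higher in tumour-like than in macrophage-gated cells and 24.5% were that much higher in the macrophage gate. In the knockdown library the shares were 20.8% and 23.5% of 14952 genes. Of the 8 members counted in the control library, 6 were higher in tumour-like cells (Has2, Ugdh, Hyal2, Tnfaip6, Vcan and Hapln1) and 1 was higher in the macrophage gate (Hyal1). Of 7 counted in the knockdown library, 3 were higher in tumour-like cells (Has2, Ugdh and Vcan) and 1, again Hyal1, in the macrophage gate. The median log2 ratio of tumour-like over macrophage was 0.82 for the members beside 0.17 for all counted genes in the control library, and 0.51 beside 0.13 in the knockdown library.

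Among the other enzymes of hyaluronan breakdown, Cemip2, a cell-surface hyaluronidase, was at 31.6 and 35.0 CPM in control and knockdown tumour-like cells and at 27.1 and 33.9 CPM in the macrophage gate. Hexa and Gusb, lysosomal enzymes that take fragments down to single sugars, were higher in the macrophage gate. Hexa was at 130 and 154 CPM in tumour-like cells and at 377 and 333 CPM in the macrophage gate, and Gusb at 39.2 and 38.6 CPM and at 113 and 89.4 CPM. Both were lower in the knockdown library in the macrophage gate, with log2 ratios of -0.18 (-0.23 to -0.13) and -0.33 (-0.43 to -0.24), inside the 1.5-fold mark. All 5 macrophage markers that the gate does not use were lower there too, among them Cd68 at 313 and 242 CPM, Csf1r at 192 and 158 CPM and Mrc1 at 173 and 129 CPM, and their part in these ratios was not tested. Cemip had 9 and 5 UMIs in tumour-like cells and Spam1 had 0 in both.

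Vcan, the large chondroitin sulphate proteoglycan that binds hyaluronan through its head domain, was at 236 CPM (233 to 239) in tumour-like cells of the control tumour and 253 CPM (249.8 to 256) in those of the knockdown tumour, and 91.2% and 91.0% of cells had a UMI of it, against 24.4% and 22.4% in the T cell gate at its lower depth. With cells thinned to 5000 UMIs the Vcan shares were 63.6% and 66.8% in tumour-like cells. They were 35.0% and 38.2% in the T cell gate, without 631 and 566 shallower cells. At 2000 UMIs they were 37.5% and 39.0%, and 12.1% and 12.7% in the T cell gate. The tumour-like Vcan levels lay apart between libraries by a log2 ratio of 0.10 (0.06 to 0.14), beside the median of 0.05 over all counted genes. Collagen-rich cells had the higher level, 352 CPM in the control library and 353 CPM under knockdown, against 200.5 and 214 CPM in the cells below the collagen level. Within that subset the libraries overlapped. Non-cycling cells had 277 and 299.96 CPM and cycling cells 205 and 216 CPM. Of all genes detected in at least 10% of tumour-like cells of both libraries (9181), those whose level across cells was most like Vcan were Col3a1 (r = 0.44 in the control library and 0.34 under knockdown), Zeb1 (0.36 and 0.33) and Col6a1 (0.40 and 0.33). Col3a1 and Col6a1 are matrix collagens and Zeb1 is a mesenchymal transcription factor. These are Pearson correlations of log levels over 5184 and 5370 cells that share a library and its depth, and are given as a description.

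For Ugdh the same search gave Higd1a (0.26 and 0.25), Ero1a (0.26 and 0.24) and Bnip3 (0.26 and 0.23), genes known to be induced in low oxygen. No gene reached 0.2 in both libraries for Has2, Hyal2 or Tnfaip6. Among the members themselves the highest values were Has2 with Tnfaip6, at 0.15 and 0.08, and Has2 with Vcan, at 0.12 and 0.14, too weak in counts this sparse to be read.

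Vcan is cut by ADAMTS proteases. Of these, Adamts5 was at 9.56 CPM in the control library and 15.4 CPM under knockdown (log2 ratio 0.69, range 0.52 to 0.85), and Adamts1 at 36.1 and 48.8 CPM, a log2 ratio of 0.43 (0.35 to 0.52). Adamts4 was at 9.59 and 9.68 CPM. Of the 6 listed proteases 4 were counted, and 1, Adamts5, was past the fold, higher in the knockdown library, where 4.5% of all 14980 genes counted in these cells were that much higher.

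Hapln1, the link protein that locks versican onto hyaluronan, was at 1.32 CPM (1.11 to 1.55) in tumour-like cells of the control tumour and 0.0329 CPM (0.00678 to 0.0961) in those of the knockdown tumour. Its 144 control UMIs lay in 86 of 5184 cells and its 3 knockdown UMIs in 3 of 5370 cells. The intervals lay far apart, with a log2 ratio of -5.32 (-7.84 to -3.53). Of the 86 control cells, 64 also had a Krt16 UMI and 34 a Gfpt2 UMI, 71 had at least 1 of the 2, and the cells with neither held 18 of the 144 UMIs. Cells with a Krt16 UMI had 13.5 CPM of Hapln1 in the control library (117 UMIs in 331 cells) and 0 UMIs in the 132 such cells of the knockdown library, which is at least 12.8-fold lower with a floor of 3 UMIs over the group. In cells with neither a Krt16 nor a Gfpt2 UMI the levels were 0.181 CPM (18 UMIs) and 0.0343 CPM (3 UMIs), a log2 ratio of -2.40 (-5.34 to -0.10).

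Hapln1 UMIs elsewhere were few. The macrophage gate had 21 in the control library and 0 under knockdown, at least 6.08-fold lower, and all 21 lay in cells that also held a UMI of 1 of 5 tumour genes (Hmga2, Sdk1, Grm3, F3 and Tnnt2). Cells in no gate had 34 and 0. The 34 lay in 10 of 985 control cells, with up to 11 in 1 cell. Their level of 3.90 CPM (2.70 to 5.45) was above the 1.32 CPM of control tumour-like cells. The T cell gate had 3 and 2, too few to show a difference. Its relatives Hapln2, Hapln3 and Hapln4 and the lecticans Acan, Bcan and Ncan had at most 10 UMIs in tumour-like cells of either library. Among the 8 other binding and link proteins listed, 1 was counted, Habp4 at 16.1 and 17.5 CPM. Vcan and Hapln1, though neighbours, did not share the pattern: across the 4 levels of Krt16 described next they ran in opposite directions in the control library.

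Most Hapln1 UMIs lay in cells with Krt16, so tumour-like cells were divided by Krt16 UMIs, a division chosen after the levels above were seen. There were 4853, 143, 102 and 86 control cells with 0, 1, 2 to 9 and 10 or more Krt16 UMIs, and 5238, 82, 37 and 13 knockdown cells. In the control library Hapln1 was at 0.268, 2.51, 12.997 and 30.1 CPM in that order. Has2 was at 25.9 CPM (24.9 to 26.9), 33.5 CPM (27.8 to 40.1), 59.4 CPM (50.6 to 69.4) and 92.5 CPM (80.8 to 105), and Vcan at 245, 185, 117 and 84.3 CPM. No interval of Has2 or of Vcan overlapped that of the next bin. Control cells with much Krt16 RNA thus had more of the synthase and the link protein and less of the proteoglycan, and their Gfpt2 level was also higher, 1.06, 1.95, 17.5 and 26.8 CPM. Ugdh was at 63.1, 70.3, 80.6 and 90.9 CPM. Hyal2 was at 21.3, 17.3, 17.5 and 17.3 CPM, and all of these intervals overlapped.

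In the knockdown library the same division gave a different picture. Has2 was at 36.4, 57.0, 41.9 and 42.5 CPM, and the last 3 overlapped. Vcan was at 254, 264, 189 and 173 CPM, above the control level in every bin. Hapln1 had 0 UMIs in all 3 bins with Krt16, where the floor of 3 UMIs stands at 1.73, 3.81 and 9.11 CPM, so in the bins of 2 or more Krt16 UMIs it lay below the control level of 12.997 and 30.1 CPM. In cells with no Krt16 UMI, Has2 was at 25.9 CPM in the control library and 36.4 CPM under knockdown (log2 ratio 0.49, range 0.39 to 0.60), larger than over all tumour-like cells. The last knockdown bin holds 13 cells, and Krt16 cells were rarer in that library, at 132 against 331.

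**Figure D2:**
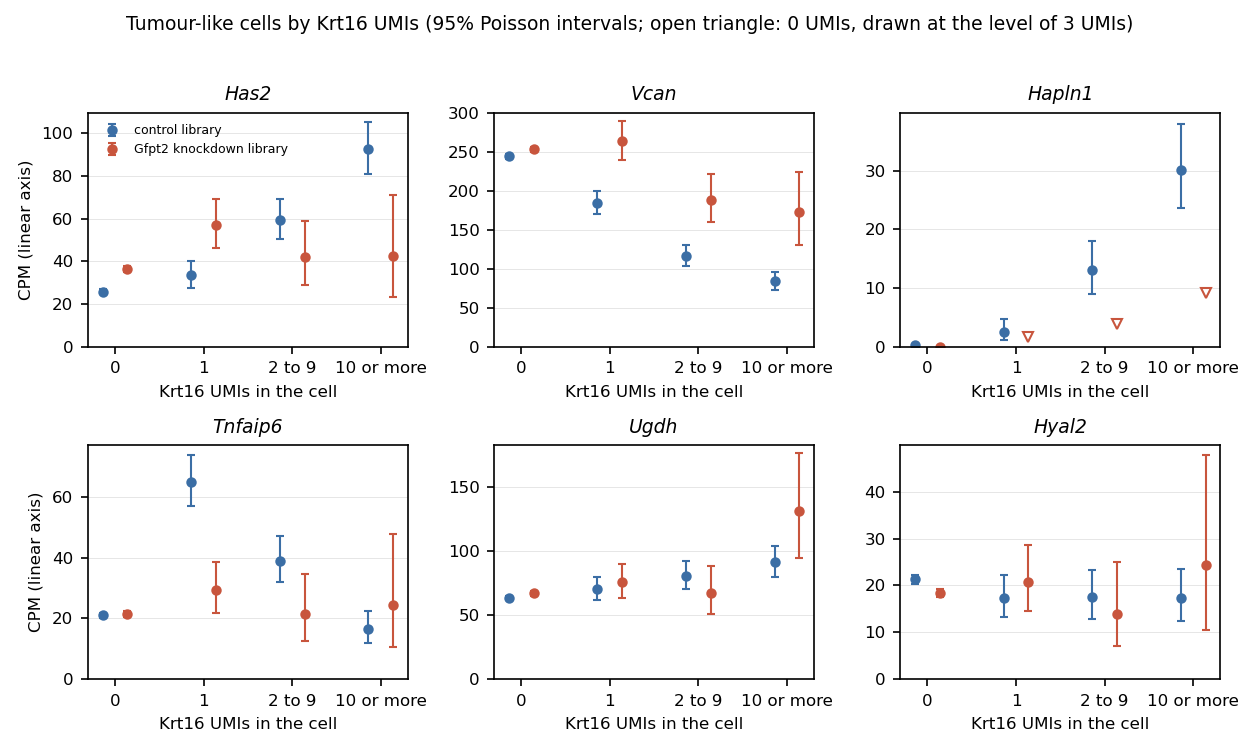
Level of 6 members in CPM (linear axis from 0) in tumour-like cells with 0, 1, 2 to 9 and 10 or more Krt16 UMIs, for the control library (blue) and the knockdown library (red), with exact 95% Poisson intervals and open triangles at the level of 3 UMIs where none was counted. From the lowest to the highest control bin Has2 goes from 25.9 to 92.5 CPM, Hapln1 from 0.268 to 30.1 CPM and Vcan from 245 to 84.3 CPM.

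Tnfaip6 encodes TSG-6, a secreted protein induced by inflammation that cross-links hyaluronan and transfers heavy chains onto it. It was at 22.8 CPM (21.9 to 23.7) in tumour-like cells of the control tumour and 21.75 CPM (20.8 to 22.7) in those of the knockdown tumour, from 2496 and 1984 UMIs. The levels overlapped, with a log2 ratio of -0.07 (-0.19 to 0.05), yet the gene was spread over cells differently. The top 10% of cells held 74.8% of its UMIs in the control library and 60.1% under knockdown, and 1 control cell alone held 111 UMIs against a highest count of 16 in a knockdown cell. In the control library 28 cells with 10 or more UMIs held 645 UMIs, or 25.8% of the total, and 24 of them were collagen-rich cells. The knockdown library had 2 such cells with 28 UMIs, or 1.41%. A UMI was seen in 22.1% of control and 24.7% of knockdown tumour-like cells, and in 8.18% (7.45 to 8.96) and 9.68% (8.91 to 10.5) after thinning to 5000 UMIs. In the T cell gate the shares were 5.82% and 6.56%, and 6.56% and 6.62% after thinning, so the thinned tumour-like shares stood little above that level.

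Outside those cells, which Tnfaip6 itself selects, it stood at 17.0 CPM (16.3 to 17.8) for the control and 21.5 CPM (20.5 to 22.4) for the knockdown. In collagen-rich cells the control had 46.3 CPM and the knockdown 30.4 CPM, and without the cells of 10 or more UMIs 29.7 CPM (27.6 to 31.9) and 29.4 CPM (27.3 to 31.5). The log2 ratio in collagen-rich cells was -0.61 (-0.79 to -0.42) with those 24 control and 2 knockdown cells, and without them the levels overlapped. The other tumour-like cells were higher in the knockdown library, with 15.6 CPM in the control library and 18.3 CPM under knockdown (log2 ratio 0.23, range 0.07 to 0.39). The partners on which TSG-6 acts, the inter-alpha-inhibitor heavy chains Itih1 to Itih5 with Ambp, and Ptx3, had at most 15 UMIs each in tumour-like cells of either library.

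**Figure D3:**
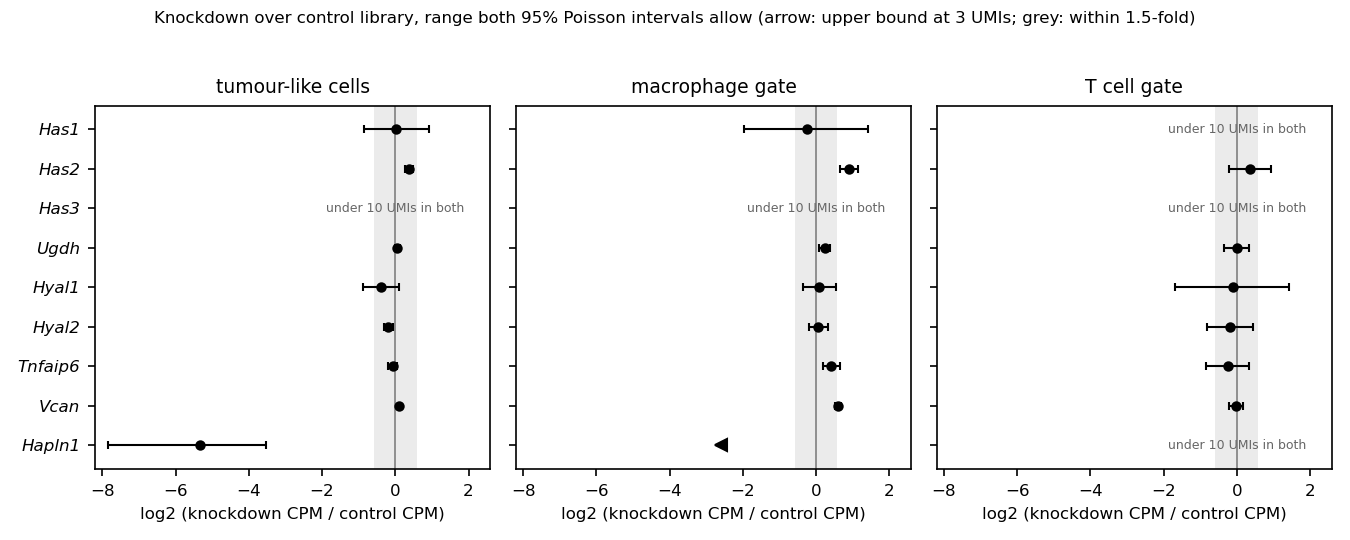
Log2 ratio of knockdown over control CPM for each member in tumour-like cells and in the macrophage and T cell gates, with the range that both 95% Poisson intervals allow. Grey marks ratios within 1.5-fold, and the arrow is an upper bound at 3 UMIs. In tumour-like cells Hapln1, at -5.32, lies outside the grey band, and in the macrophage gate Has2 and Vcan, at 0.90 and 0.60, lie to its right.

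In the macrophage gate Has2 and Vcan were the members past the fold. Has2 was at 10.5 CPM (9.52 to 11.5) for the control and 19.6 CPM (18.1 to 21.1) for the knockdown (log2 ratio 0.90, range 0.65 to 1.15). Vcan was at 95.03 CPM (92.1 to 98.1) and 144.5 CPM (140.6 to 148.5), a log2 ratio of 0.60 (0.52 to 0.69). Of 14220 genes counted in this gate, 5.74% were at least 1.5-fold higher and 1.51% that much lower in the knockdown library, and of 6 members counted 2 were higher and 0 lower. The median log2 ratio of the members was 0.32 beside 0.08 for all counted genes. Tumour RNA in the gate also differed between libraries. The tracer Hmga2, close in tumour-like cells of both libraries, was at 90.0 and 121 CPM in the gate, a log2 ratio of 0.42 (0.33 to 0.51). The other 4 tracers differed in tumour-like cells already: their log2 ratios in the gate and in tumour-like cells were 0.96 and 0.65 for Sdk1, 1.46 and 1.13 for Grm3, 0.91 and 0.69 for F3, and -1.02 and -0.89 for Tnnt2. Fibroblast markers summed to 999.9 and 1416 CPM there, and 31.4% of control and 42.4% of knockdown cells of the gate held a UMI of at least 1 of the 5 tumour genes.

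Per Hmga2 UMI the gate held close to as much Has2 and Vcan as tumour-like cells did. Has2 had 0.116 UMIs per Hmga2 UMI in the gate and 0.129 in tumour-like cells of the control library, and 0.162 and 0.169 in the knockdown library. For Vcan the values were 1.06 and 1.07, and 1.197 and 1.16. Tnfaip6 had 0.148 in the gate and 0.103 in tumour-like cells of the control library and 0.147 and 0.0998 in the knockdown library, and Hyal1 had 0.0466 and 0.00715, and 0.0370 and 0.00554. Ugdh had 0.391 and 0.291, and 0.343 and 0.308, and Hyal2 0.140 and 0.0948, and 0.109 and 0.0843. Has2 and Vcan thus stood in nearly the tumour-like proportion to Hmga2, and the other 4 above it.

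The levels are also given by C1q level, in bins chosen after these levels were seen. In cells with 10 to 30, 30 to 80 and 80 or more C1q UMIs per 10000, Hmga2 stood at 95.7%, 72.5% and 11.2% of its tumour-like level in the control library and at 102%, 79.98% and 19.1% in the knockdown library. Has2 stood at 66.0%, 77.6% and 9.45%, and at 94.9%, 80.6% and 16.8%. Vcan stood at 80.6%, 73.9% and 13.4%, and at 97.9%, 87.2% and 19.8%. The bins use the value that gated these cells, and a droplet with more tumour RNA has a smaller C1q share, so low tumour RNA in the top bin is in part built in. The levels are given as a description beside Hmga2. In the top bin Ugdh, Hyal2 and Tnfaip6 stood at 39.4%, 40.9% and 40.9% in the control library and at 35.0%, 55.5% and 69.7% under knockdown. Hyal1 stood at 342% and 505% in those cells. Depth differed between the bins, with median UMIs of 1785, 13269 and 5955 in the control library and 3893, 4495 and 4377 under knockdown.

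**Figure D4:**
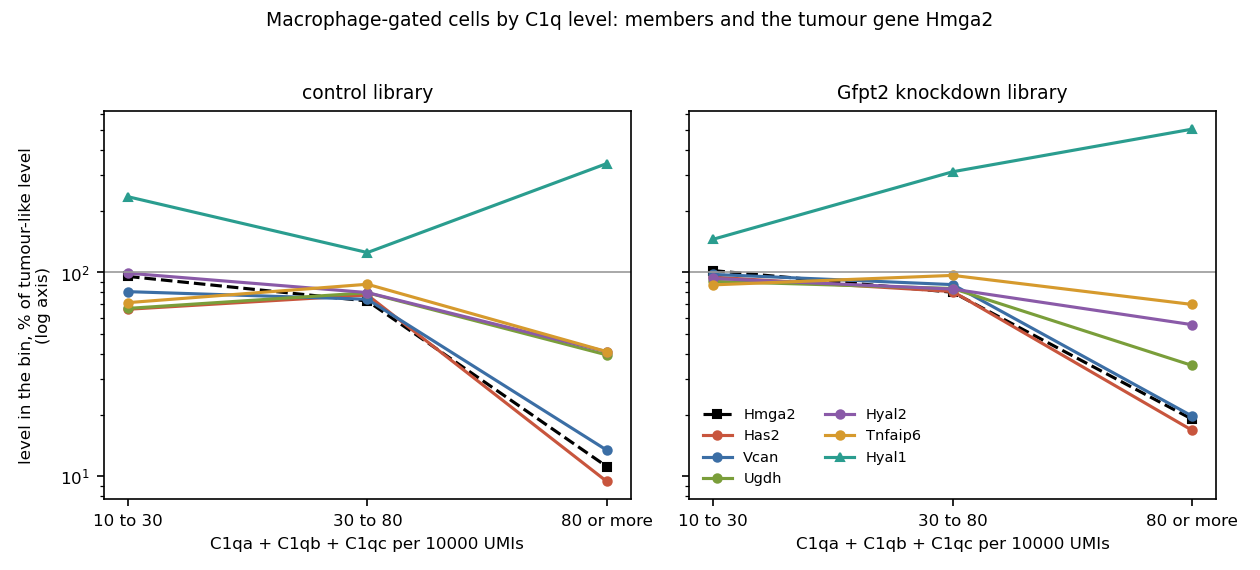
Level of 6 members and of the tumour gene Hmga2 (dashed) in macrophage-gated cells, as a percent of the tumour-like level of the same library (log axis), by summed C1qa, C1qb and C1qc per 10000 UMIs. Has2 and Vcan lie near Hmga2, between 9.45% and 19.8%, in the cells richest in C1q, Ugdh, Hyal2 and Tnfaip6 stay between 35.0% and 69.7%, and Hyal1 lies above 100% throughout.

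Leaving out cells with a UMI of any of the 5 tumour genes, an alternative added after these levels were seen, kept 3334 control and 3233 knockdown cells of the macrophage gate, with medians of 5254 and 3610 UMIs. A shallower cell can lack a tracer UMI by its depth alone. Has2 was then at 1.29 CPM (24 UMIs) in the control library and 3.06 CPM (40 UMIs) under knockdown, and Vcan at 21.5 and 30.8 CPM. Tnfaip6 was at 10.3 and 12.9 CPM, Hyal2 at 8.52 and 8.88 CPM and Ugdh at 23.9 and 21.4 CPM, where the whole gate had 35.2 and 41.4 CPM of Ugdh. Hyal1 was at 5.28 CPM (98 UMIs) and 7.12 CPM (93 UMIs), a log2 ratio of 0.43 (-0.16 to 1.02). So RNA of each of these members, Has2 and Vcan among them, was still counted in C1q-positive cells without a tumour tracer. Leaving out cells with a tumour gene also lowers genes found with it, so low Has2 and Vcan levels are in part built in. In the cells kept, Tnfaip6, Hyal2 and Ugdh stood at 32.0% to 59.2% of the tumour-like level over both libraries, and Hyal1 at 334% and 591%. In these cells Tnfaip6 was higher where the interferon genes Ifit2, Oasl1 and Ifih1 summed to at least 5 per 10000, at 17.7 and 16.5 CPM, than in the rest, at 5.58 and 8.04 CPM. Leaving out the 10% of cells with the highest doublet scores in each library, which took 16.6% and 18.1% of the gate, gave log2 ratios of 2.01 for Has2 (80 and 299 UMIs) and 1.79 for Vcan (731 and 2336 UMIs). These values are a description, and the part of tumour RNA in the macrophage ratios was not tested.

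In the T cell gate no member was past the fold. Of 11230 genes counted there 3.05% were at least 1.5-fold higher and 1.52% that much lower in the knockdown library, and the counts for the 5 members counted were 0 and 0. Has2 was at 14.1 and 18.1 CPM, Vcan at 142 and 140.1 CPM and Tnfaip6 at 17.0 and 14.3 CPM, all with overlapping intervals. Without cells holding a tumour tracer, 711 control and 587 knockdown cells, Has2 had 4 and 3 UMIs, Vcan was at 25.7 and 18.6 CPM, and Tnfaip6 had 24 and 4 UMIs, or 9.33 and 2.13 CPM. In the control library the T cell levels of Has2 and Vcan lay between their macrophage and tumour-like levels, in the same order as Hmga2. In the knockdown library they did not: the T cell level was the lowest of the 3 gates for Has2, Vcan and Hmga2 (117 CPM, beside 121 CPM in the macrophage gate), each with an interval that overlapped that of the macrophage gate. Monocyte-gated cells (Ptprc-positive cells with Ly6c2 or Plac8 and little C1q or Cd3, 235 control and 136 knockdown cells) had 133 and 113 CPM of Vcan, which monocytes are known to express, beside 113 and 102 CPM of Hmga2, and the intervals of Vcan overlapped.

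Of the receptors through which cells bind hyaluronan, Cd44 was at 153 and 157 CPM in tumour-like cells, 149 and 149 CPM in the macrophage gate and 174 and 184 CPM in the T cell gate, with overlapping intervals in each. Hmmr, also a cell cycle gene, was at 49.2 and 45.1 CPM in tumour-like cells. Layn was at 71.7 and 85.8 CPM there and at 24.6 and 41.7 CPM in the macrophage gate, a log2 ratio of 0.76 (0.60 to 0.92). Stab1, a scavenger receptor, was at 132 and 99.0 CPM in the macrophage gate against 2.30 and 2.81 CPM in tumour-like cells, and Tlr2 at 55.5 and 43.2 CPM in the macrophage gate, both lower in the knockdown library as the macrophage markers of that gate were. Tlr4 was at 6.83 and 9.37 CPM in tumour-like cells and at 25.1 and 26.7 CPM in the macrophage gate. Over all 42 listed genes of the pathway beside the members, 22 were counted in tumour-like cells, 1 was past the fold upwards (Adamts5) and 1 downwards (Gfpt2), with a median log2 ratio of 0.11, beside 4.5% and 1.4% of all counted genes. In the macrophage gate 3 of 20 were past it upwards (Layn, Adamts1 and Adamts5) and 0 downwards, with a median of 0.03, beside 5.74% and 1.51% of all counted genes and a log2 ratio of 0.42 for the tumour tracer Hmga2. In the T cell gate 2 of 20 were past it upwards (Itih5 and Adamts5) and 0 downwards, with a median of 0.07, beside 3.05% and 1.52% of all counted genes.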

How the data were processed

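Single-cell RNA of 1 control and 1 Gfpt2 knockdown LLC tumour was used. The authors deposited raw UMI counts per gene and cell, made with Cell Ranger, version 6.1.0 per the file headers and 3.1.0 per the submitters' processing notes. The genome build, annotation, strand setting and cell filter are not given in the sources used here. All deposited cells were kept. Counts were summed per gate and library in Python 3.11.15 (numpy 2.4.6, scipy 1.17.1, pandas 2.3.3) and divided by the summed UMIs of the same cells to give CPM, with exact 95% Poisson intervals for sums and Clopper-Pearson intervals for shares of cells. The range of a ratio sets the ends of both Poisson intervals against each other, so it is wider than a 95% interval of the ratio. A ratio was formed where at least 1 library had 10 UMIs, and a level of 0 was replaced by a floor of 3 UMIs per group. With 1 library per group no test was run. The code that counts genes past the fold was checked on simulated counts.

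Median depth was 10312 UMIs per control cell and 7496 UMIs per knockdown cell. Cells were thinned to 5000 UMIs (2000 in the T cell gate for ratios) where shares are compared, and for some shares also to 2000 UMIs. Doublets were scored with Scrublet in scanpy 1.11.5, and the top 10% of scores were left out as an alternative, since the tool's own threshold failed in the knockdown library. Named were all members, other pathway genes with at least 100 UMIs in a gate and library, and up to 3 genes most like a member with a correlation of at least 0.2 in both libraries. 1 result among the other pathway genes is not reported here. Genes below 100 UMIs that are named beside these were added after their values were seen. The members and gene lists were chosen with earlier results of these data known. Alternatives covered the gates, scaling, thinning, doublets, mitochondrial share and the minimum of UMIs. Figures were drawn with matplotlib 3.10.9.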

Additional observations from a re-analysis of the deposited data

How the results depend on the processing

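Over 25 results and 200 alternatives, 170 values stayed within their counting range and 30 moved. No paired analysis was possible because each group has 1 library. For Has2 the log2 ratio of knockdown over control in tumour-like cells was 0.49 without cells holding a Krt16 UMI and 0.52 without those holding Krt16 or Gfpt2, against 0.38. In the macrophage gate it was 1.21 at 80 C1q UMIs per 10000, 1.24 without tracer cells, 2.01 without the highest doublet scores and 1.26 after thinning, against 0.90. Vcan in tumour-like cells was 0.0587 with at least 10000 UMIs per cell and 0.0525 under median-of-ratios scaling. It was 0.0524 without Krt16 cells and 0.0525 without Krt16 or Gfpt2 cells. Vcan in the macrophage gate was 1.79 without the highest doublet scores and 1.02 after thinning. The tumour tracer Hmga2 also differed more after that thinning. Its thinned macrophage-gate levels were 51.8 CPM (control) and 105 CPM (knockdown), against 90.0 and 121 CPM unthinned. Tnfaip6 was 0.0538 in tumour-like cells without Krt16 or Gfpt2, and in the macrophage gate 0.70 at 80 C1q UMIs per 10000 and 0.66 without the highest doublet scores. Ugdh in the macrophage gate, at 0.23 with intervals apart, changed sign to -0.11 at 80 C1q UMIs per 10000 and -0.16 without tracer cells, with overlapping intervals in both, and was 0.39 without the highest doublet scores. In the T cell gate without tracer cells Tnfaip6 was -2.13 against -0.25 and Vcan -0.46 against -0.02, and Vcan was 0.23 after thinning. Hapln1 in tumour-like cells was -2.98 without Krt16 cells, -2.40 without Krt16 or Gfpt2 cells and, as a bound, -3.37 after thinning (30 and 0 UMIs). The share of genes past 1.5-fold in either direction was 2.39% and 13.7% in tumour-like cells with minimums of 200 and 10 UMIs, 4.11% and 14.9% in the macrophage gate and 1.497% and 12.6% in the T cell gate, against 5.901%, 7.25% and 4.57%. The cause of these shifts was not tested. Has1, Has3 and Hyal1 are limited by depth.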
